A study of Mus musculus with 32 samples.

Results

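The cytoplasmic ribosomal protein genes encode the protein components of the large and small ribosomal subunits, and they were followed here in ribosome-bound and whole-tissue RNA from mouse cortex. Members were chosen by symbol (Rpl, Rplp, Rps and Rpsa names of a fixed pattern), with at least 1 count in 16 of the 32 libraries. Of 84 matching symbols, Rpl10a was left out because its EGFP-tagged form is the bait of the purification, and Rpl10l (no counts in any library) and Rpl39l (counts in 15 libraries) fell short. The remaining 81 genes, 49 of the large and 32 of the small subunit, were analysed among 24091 named genes. The member nearest the limit was Rpl26, with a count in 19 libraries. Apart from Rpl26 and Rpl3l (24 libraries), the members, 79 in number, had a count in every library.

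A ribosome carries a single copy of most of these proteins, so cells make them in matched amounts. The mRNAs of many vertebrate members begin with a C followed by a run of pyrimidines, the 5′ terminal oligopyrimidine (TOP) tract, through which mTORC1 and the RNA-binding protein Larp1 control how strongly they are translated. Most members also have many processed pseudogenes elsewhere in the genome. In neurons, ribosomes are built in the nucleolus and serve both the soma and the processes.

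Translating ribosome affinity purification (TRAP) captures ribosomes that carry an EGFP-L10a transgene expressed in 1 cell class, and sequences the RNA bound to them. Per the labels, the Gprin3-bacTRAP line (ES152) tags lower layer 5b pyramidal cells and the Colgalt2-bacTRAP line (DU9) tags upper layer 5b pyramidal cells, in adults of 8 to 17 weeks. The baseline set held wildtype Gprin3 IP (2 libraries), its input (3), Colgalt2 IP (2) and its input (2), all from primary motor cortex (M1). The amyotrophic lateral sclerosis (ALS) set crossed both lines to SOD1*G93A mice, which carry a mutant human SOD1 transgene, and held Gprin3 IP from SOD1*G93A mice (3) and from wildtype littermates (WT, 2), Colgalt2 IP from SOD1*G93A mice (4) and WT (3), and M1 input of the Gprin3 cross from SOD1*G93A mice (6) and WT (5). For the Colgalt2 libraries of the ALS set, the brain region entry and the dissection protocol say whole cortex, whereas the source names say M1. Nothing in the labels ties libraries to separate animals, so p-values measure the spread between these libraries, which may be technical.

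Counts per library ranged from 10863628 to 77220890. All 8 markers of layer 5b extratelencephalic neurons that were checked were higher in Gprin3 IP than input in both genotypes of the ALS set, and 7 of 8 at baseline; in Colgalt2 IP at baseline 4 of 8 passed the test. All 10 comparisons below are of relative levels, since each library is scaled to its own total: less RNA of a type per cell and fewer cells of a type cannot be told apart in input.

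To show how the TOP tract looks in the members the results turn on, 30 bases around the RefSeq transcription start (build GRCm38.p6) are printed 5′ to 3′ on the gene's strand, 10 before and 20 after the start. Capitals mark the tract as counted here, which begins at the qualifying C nearest the start; pyrimidines just before that C stay in lower case. The first 5 have a tract and the last 3 have none by the definition used here, although Rps12 has a pyrimidine run further in. The letters alone say nothing about which start these neurons use.
Rpl15 (chr14:18270967-18270996, minus strand): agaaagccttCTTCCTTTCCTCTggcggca
Rpl18 (chr7:45718061-45718090, plus strand): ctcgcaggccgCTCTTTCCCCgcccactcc
Rpl28 (chr7:4792955-4792984, plus strand): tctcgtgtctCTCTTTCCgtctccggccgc
Rps6 (chr4:86857348-86857377, minus strand): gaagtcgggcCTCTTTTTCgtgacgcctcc
Rps26 (chr10:128626487-128626516, minus strand): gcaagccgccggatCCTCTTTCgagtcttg
Rpl4 (chr9:64173377-64173406, plus strand): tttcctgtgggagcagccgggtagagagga
Rps4x (chrX:102189372-102189401, minus strand): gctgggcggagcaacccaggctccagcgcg
Rps12 (chr10:23787190-23787219, minus strand): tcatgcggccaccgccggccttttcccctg

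RefSeq start windows were at hand for 60 of the 81 members, 37 large and 23 small. A tract, defined as a C within 5 bases of the start followed by at least 4 pyrimidines on the transcribed strand, was present in 29 of them (48.3%): 17 large and 12 small. The same tract was found in 18.7% of the windows of 17491 protein-coding genes. A run of at least 8 pyrimidines opening with C anywhere within 50 bases of the start was found in 50 members (83.3%), against 29.0% of protein-coding genes, a wider search that includes most of the narrower matches. In the full window of 250 bases before to 50 bases after the start, searched on both strands, CCGGAAG (the core bound by GABP and other ETS factors) was found in 23 members (38.3%, against 11.9% of protein-coding windows), AAGATGG (YY1 core) in 9 (15.0%, against 6.37%) and GGGCGG (SP1 box) in 35 (58.3%, against 46.3%).

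The members are short and repeated. Their principal GENCODE transcript had a median length of 774 bases (345 to 5130), against 2941 bases over 13155 genes averaging at least 1 CPM (counts scaled to a common library total, the usual CPM unit). Only 3.5% of those genes had a transcript shorter than the median member. Of all 50-base stretches of a member's transcript, a median of 47.8% also occurred in the transcript of another gene annotated as a pseudogene, against 0.0% for the other genes at that level. More than 50% of the stretches were shared in 39 members and in 0.742% of the other genes, and in 2 members, Rpl3l among them, none was. How reads that fit a member and a pseudogene were assigned is not given in the sources used here, so levels of strongly shared members are uncertain. Per kilobase of transcript, the median level was 34.6 CPM per kb for the 39 members with more than 50% shared and 56.1 CPM per kb for the other 42, values averaged over the 10 groups with equal weight.

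Per kilobase and averaged over the 10 groups, the most abundant members were Rpl41, which encodes the smallest protein of the large subunit (487 CPM per kb), Rplp1, an acidic protein of the ribosomal stalk (366), and Rps15, a protein of the head of the small subunit near the decoding site (324). The least abundant were Rpl3l (0.0977 CPM per kb), a striated-muscle paralog of Rpl3, then Rpl26 (0.442) and Rpl12 (3.60). Rpl26 had at most 16 counts in any library, with 71.3% of its 50-base stretches found in pseudogenes, and Rpl3l at most 26. Rpl10l, an autosomal testis-expressed copy of Rpl10, had 0 counts in each of the 32 libraries, which allows up to 3 counts or 0.0388 to 0.276 CPM per library, counting error alone.

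The members did not vary alike between groups. The highest group mean CPM was a median of 4.46-fold the lowest over 80 members, with quartiles of 2.99 and 5.67. Rpl27a (1.54-fold), Rpl4 (1.63-fold), Rps6 (1.78-fold) and Rpsa (1.83-fold) varied least. Rpl4 lines the peptide exit tunnel, Rps6 is the classical phosphorylation target of the S6 kinases, and Rpsa is also known as the laminin receptor precursor. Among members other than the sparsely counted Rpl26, Rplp1 (13.9-fold), Rps14 (13.0-fold), Rps2 (10.8-fold) and Rps12 (10.5-fold) varied most. WT Colgalt2 IP of the ALS set was the lowest group for 62 of the 81 members, and Colgalt2 input at baseline the highest for 47.

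**Figure D1:**
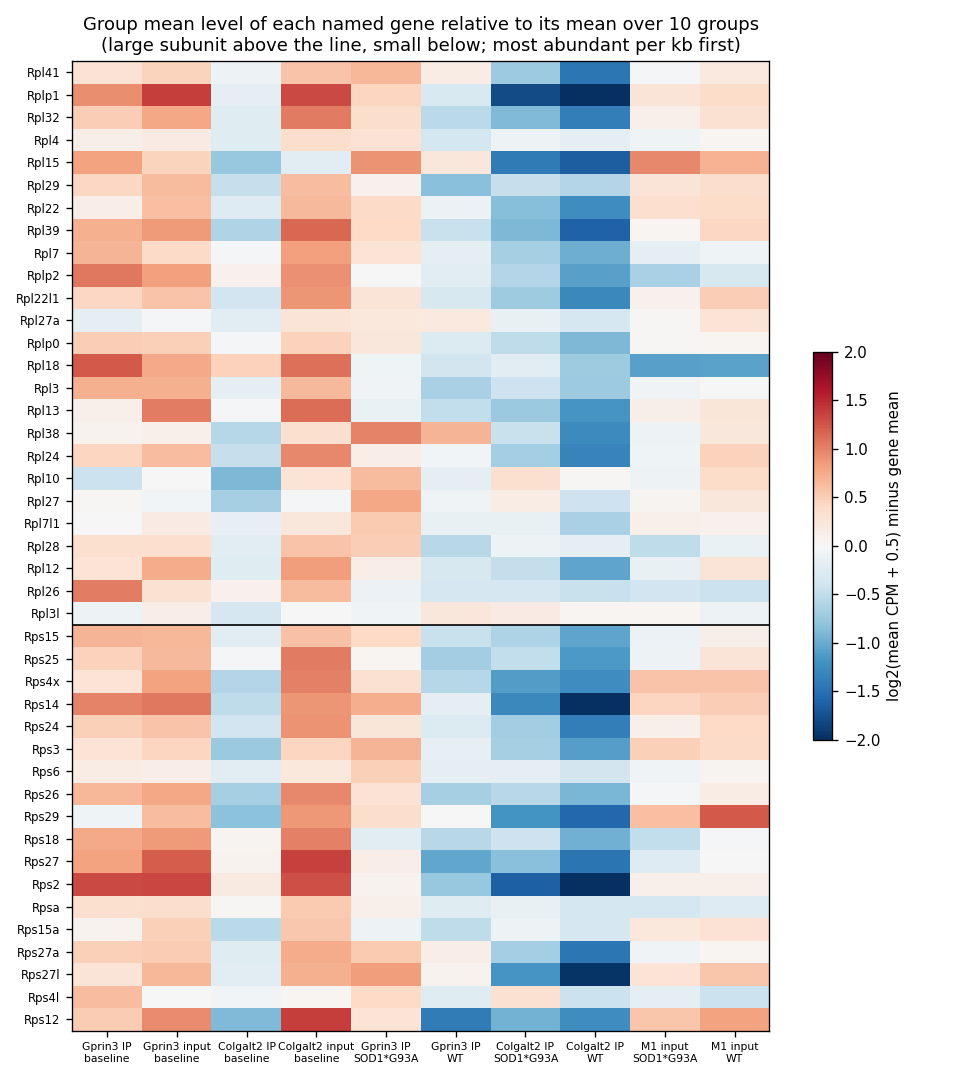
Group mean level of the 43 genes named in the text (rows; large subunit above the black line, small below, each ordered from the highest to the lowest level per kb) in 10 groups (columns), as log2(mean CPM + 0.5) minus the gene's mean over groups. The WT Colgalt2 IP column of the ALS set is blue for most rows (lowest group for 32 of them), while Rpl27a, Rpl4, Rps6 and Rpsa stay pale across groups.

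Together the members took between 0.221% and 0.869% of a library's counts. At baseline they made up 0.556% and 0.695% of Gprin3 IP, against 0.589%, 0.806% and 0.690% of its input, so the groups overlapped. Colgalt2 IP held 0.423% and 0.315%, against 0.658% and 0.869% of its input, with both IPs below both inputs. In the ALS set, SOD1*G93A Gprin3 IP held 0.559%, 0.696% and 0.460%, against 0.376% and 0.364% in WT, and the groups did not overlap. In Colgalt2 IP the SOD1*G93A libraries held 0.299%, 0.303%, 0.334% and 0.275%, against 0.221%, 0.226% and 0.238% in WT, again with no overlap. Input ranged from 0.460% to 0.512% with a median of 0.489% in the 6 SOD1*G93A libraries, and from 0.476% to 0.606% with a median of 0.505% in the 5 WT libraries, which overlapped.

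The balance of the 2 subunits was read from the summed CPM of the large subunit members over that of the small subunit members in each library; the sums cover 49 and 32 genes, so the value itself has no fixed reference. It averaged 1.41 ± 0.00707 in Gprin3 IP (SD, n = 2) and 1.38 ± 0.0265 in its input (n = 3), and 1.62 ± 0.0566 in Colgalt2 IP (n = 2) and 1.36 ± 0.0212 in its input (n = 2). In the ALS set, SOD1*G93A and WT Gprin3 IP averaged 1.44 ± 0.0404 (n = 3) and 1.55 ± 0.00707 (n = 2), and SOD1*G93A and WT Colgalt2 IP 1.68 ± 0.0299 (n = 4) and 1.81 ± 0.0493 (n = 3), with no overlap between genotypes in either line. SOD1*G93A and WT input averaged 1.33 ± 0.0293 (n = 6) and 1.33 ± 0.0324 (n = 5). Every Colgalt2 IP group and the WT Gprin3 IP group therefore lay above every input library, the highest of which was 1.41. Input of the ALS set came from M1 of the Gprin3 cross, so the Colgalt2 IPs of that set had no input of their own line.

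The share of the single gene Rpl4 in the members' CPM differed between groups. It was 8.26% and 7.74% in Gprin3 IP at baseline, against 8.29%, 6.59% and 7.53% in its input, and 8.61% and 12.9% in Colgalt2 IP, against 8.01% and 7.44% in its input. In Colgalt2 IP of the ALS set it was 13.9%, 13.9%, 12.4% and 16.7% in SOD1*G93A, against 15.3%, 17.1% and 19.8% in WT. In Gprin3 IP of the ALS set it was 8.83%, 10.8% and 9.5% in SOD1*G93A, against 9.74% and 9.71% in WT, so the share overlapped where the ratio did not. Without Rpl4, an alternative chosen after seeing the data, the ratio was 1.30 in SOD1*G93A and 1.32 in WT Colgalt2 IP, and 1.21 in SOD1*G93A and 1.30 in WT Gprin3 IP. Taken as the median large over the median small member, the ratio was 0.722 in Gprin3 IP at baseline, against 0.834 in its input, which puts the IP below input. It was 0.890 in Colgalt2 IP, against 0.878 in its input, and the libraries overlapped (0.770 and 1.01 against 0.824 and 0.932). By this measure WT Gprin3 IP of the ALS set (0.789 and 0.877) also overlapped input. The genotypes overlapped in Colgalt2 IP (0.984 to 1.18 in SOD1*G93A, against 1.17 to 1.39 in WT). SOD1*G93A Gprin3 IP (0.574 to 0.780) stayed below WT Gprin3 IP.

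**Figure D2:**
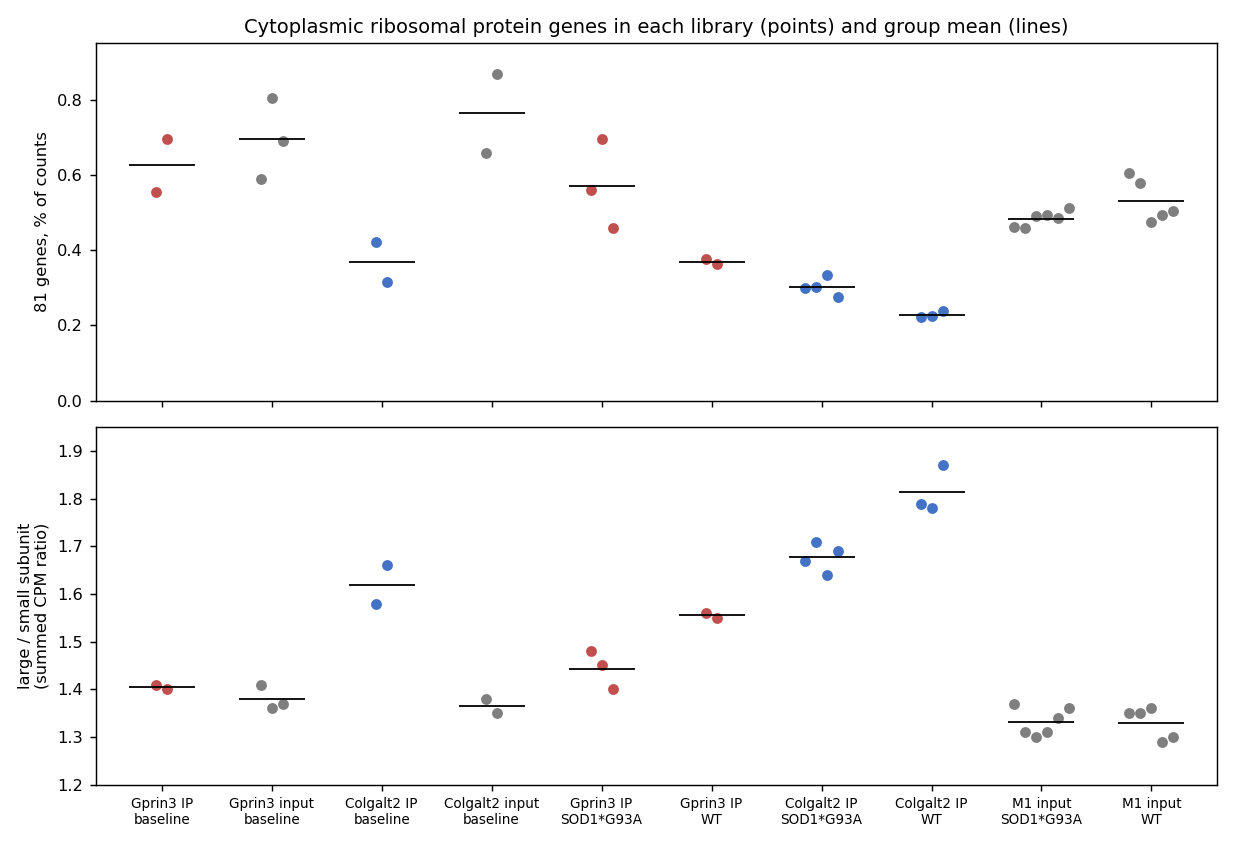
Share of each library's counts taken by the 81 genes (top, percent) and summed CPM of large over small subunit genes (bottom; the axis starts at 1.2) for each library (points) and group mean (line), Gprin3 IP in red, Colgalt2 IP in blue and input in gray. SOD1*G93A libraries lie above WT in the share and below WT in the ratio in both IP lines (0.559%, 0.696% and 0.460% against 0.376% and 0.364% in Gprin3 IP), while the input groups overlap. Without Rpl4 (not drawn) the Colgalt2 IP genotypes overlap in the ratio.

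Ribosome-bound RNA of the Gprin3 cells at baseline held these genes at levels near those of input, with a few exceptions. Of 80 members tested, 3 rose and 1 fell in Gprin3 IP relative to input at an adjusted p under 0.05 (edgeR quasi-likelihood test, Benjamini-Hochberg over all genes), where 29.2% of all 14527 genes tested were called (13.9% rose and 15.3% fell). The members' median log2 fold change was 0.065, against -0.035 over all genes. Rpl15, a large subunit protein mutated in some human Diamond-Blackfan anemia, had 266 and 256 CPM in the IPs, against 224, 209 and 172 CPM in the inputs, with no overlap (log2 fold change 0.59 ± 0.14 SE, adjusted p = 0.00956). Rpl18 had 45.3 and 67.5 CPM in the IPs, against 34.5, 46.2 and 41.5 CPM in the inputs, which overlap (0.68 ± 0.20, adjusted p = 0.0222). Rpl7 had a log2 fold change of 0.51 ± 0.17 (adjusted p = 0.0378). Rpl13 fell, at 23.0 and 36.9 CPM in the IPs against 49.6, 77.3 and 45.4 CPM in the inputs (-0.72 ± 0.25, adjusted p = 0.0474). Of these 4, Rpl15 was past the threshold whichever library was left out, and leaving 1 library out gave between 1 and 9 calls: 7 without IP replicate 1, 9 without IP replicate 2, 1 without input replicate 1 and 2 without input replicate 3. Markers of oligodendrocytes summed to 111 and 109 CPM in the IPs, against 776, 749 and 990 CPM in the inputs, with all 6 of them lower in IP. All 5 astrocyte markers, 5 of 6 microglial and 3 of 6 vascular markers were lower too, while of 5 interneuron markers Pvalb and Sst were higher and Vip lower. The 3 nuclear RNAs Malat1, Neat1 and Meg3 summed to 795 and 409 CPM, against 15720, 12620 and 10400 CPM; their part in these values was not tested.

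In Colgalt2 IP the members were lower than in input almost throughout. The median log2 fold change was -0.864 over 79 members, against 0.027 over all genes, and 78 of the 79 were below 0; the exception was Rps4l, at 0.11 ± 0.46. Yet 2 fell and none rose past the threshold, where 2.65% of all genes were called (0.906% fell and 1.75% rose); at an unadjusted p under 0.05 there were 51 members (64.6%), against 25.2% of all genes. Rps4x, the X-linked gene for the small subunit protein S4, had 113 and 80.9 CPM in the IPs, against 263 and 325 CPM in the inputs (-1.34 ± 0.23, adjusted p = 0.0408). Rps26, which lies near the mRNA exit channel of the small subunit, had 26.3 and 22.5 CPM in the IPs, against 63.9 and 89.7 CPM in the inputs (-1.39 ± 0.25, adjusted p = 0.0457). Neither gene overlapped between groups. The count depended on the libraries: 68 without IP replicate 1, 58 without IP replicate 2, and 0 without either input replicate. DESeq2 called 33 and the authors' deposited table, also made with DESeq2, gave 48 lower and 0 higher, with a median log2 fold change of -0.89. The share of all genes called is not given here for DESeq2 or for the deposited tables. Their counts therefore cannot be set against a background. Vascular markers summed to 209 and 82.5 CPM in Colgalt2 IP, against 79.1 and 104 CPM in its input, with 2 of 6, Flt1 and Ly6c1, higher past the threshold. Oligodendrocyte markers summed to 553 and 268 CPM, against 965 and 632 CPM in input, with 3 of 6 lower. The nuclear RNAs summed to 2750 and 1074 CPM, against 8795 and 19290 CPM in input, and none of the 3 passed. No astrocyte, microglial or interneuron marker passed, and the part of these markers in the members' values was not tested.

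Set directly against each other at baseline, Gprin3 IP held more of the members than Colgalt2 IP. The median log2 fold change was 0.761 over 80 members, against -0.017 over all genes, and 79 of 80 were above 0. Gprin3 IP was higher for 10 members and lower for none past the threshold, where 6.67% of all genes were called (2.22% higher and 4.45% lower); 3 of the 10 were large and 7 small subunit genes, with medians of 0.70 and 0.87. Rpl15 had 266 and 256 CPM in Gprin3 IP, against 120 and 56.3 CPM in Colgalt2 IP (1.59 ± 0.31, adjusted p = 0.00957). Rps14, whose loss causes the anemia of human 5q deletion syndrome, had 126 and 161 CPM in Gprin3 IP, against 67.5 and 34.4 CPM in Colgalt2 IP (1.52 ± 0.31, adjusted p = 0.012). Rps26 (1.35 ± 0.30, adjusted p = 0.0176) and Rpl39, a small protein of the exit tunnel (1.34 ± 0.32, adjusted p = 0.0262), were also higher. None of the 10 stayed past the threshold in every fit with a library left out: 0 were called without either Gprin3 IP replicate and 26 without Colgalt2 IP replicate 1. With the trend of level on transcript length removed, 0 members were called and the median was 0.117. The authors' deposited table gave 36 higher and 0 lower, with no share of all genes at hand for that table. Vascular markers summed to 38.2 and 34.6 CPM in Gprin3 IP, against 209 and 82.5 CPM in Colgalt2 IP, with 5 of 6 lower past the threshold. Astrocyte markers summed to 45.2 and 23.4 CPM, against 141 and 137 CPM in Colgalt2 IP, with 3 of 5 lower. Interneuron markers went the other way, at 1504 and 1517 CPM in Gprin3 IP, against 727 and 537 CPM in Colgalt2 IP, with Sst and Pvalb higher past the threshold and none of the 5 lower. Of the oligodendrocyte and microglial markers tested, 2 of 5 and 2 of 4 were lower. The nuclear RNAs summed to 795 and 409 CPM, against 2750 and 1074 CPM, with all 3 lower. Their part in the members' difference was not tested.

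**Figure D3:**
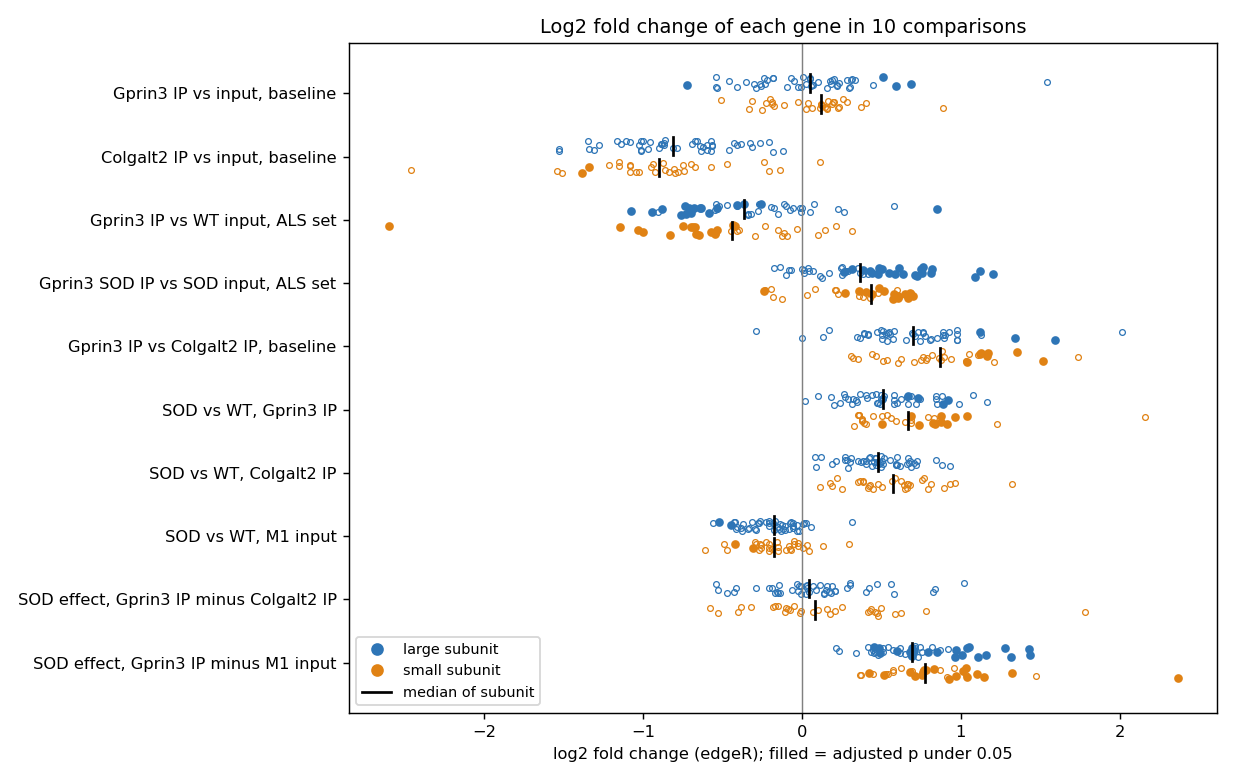
Log2 fold change (edgeR) of each tested gene in 10 comparisons, large subunit blue and small subunit orange, filled where the adjusted p is under 0.05, with the median of each subunit as a black bar. Most points lie left of 0 where Colgalt2 IP was set against input (median -0.864). They lie right of 0 between the IP lines at baseline (0.761) and between SOD1*G93A and WT IP of either line (0.561 and 0.495).

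In the ALS set, the members' median difference between IP and input in Gprin3 cells had opposite signs in the 2 genotypes. In SOD1*G93A mice, IP was higher than input for 38 members and lower for 1, where 49.8% of all genes were called (24.7% higher and 25.1% lower), with a median log2 fold change of 0.386 over 79 members against -0.029 over all genes. In WT mice, IP was higher than input for 1 member and lower for 35, where 40.4% of all genes were called (20.6% higher and 19.8% lower), with a median of -0.418 against -0.036. In the SOD1*G93A comparison the largest differences were Rpl38, known in mouse for translation of Hox mRNAs (24.4, 33.8 and 12.2 CPM in IP, against 4.68 to 14.4 CPM in input; 1.20 ± 0.33, adjusted p = 0.00713), Rpl28, Rpl18 and Rpl27 (1.12, 1.09 and 0.82). Rps15a was the member that fell (127, 128 and 125 CPM in IP, against a range of 148 to 170 CPM in input; -0.24 ± 0.08, adjusted p = 0.0186). Without SOD1*G93A IP replicate 2 the count of 39 dropped to 23. Astrocyte, oligodendrocyte and microglial markers were lower in IP in both genotypes, with medians further from 0 in SOD1*G93A. In SOD1*G93A, 5 of 5 astrocyte, 6 of 6 oligodendrocyte and 6 of 6 microglial markers were lower past the threshold (median log2 fold changes of -3.28, -3.54 and -3.55). In WT, 3 of 5, 5 of 6 and 4 of 6 were lower (-1.21, -1.50 and -1.16). Interneuron markers were mixed: Pvalb and Sst were higher and Vip lower in both genotypes, and Gad1 was higher in WT. Of the vascular markers tested, 2 of 5 were lower in SOD1*G93A and 1 of 6 in WT. The part of these markers in the members' values was not tested.

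The WT comparison was led by Rps12, which had 1.07 and 0.596 CPM in the IPs, against 7.10, 5.80, 5.63, 4.05 and 5.53 CPM in the inputs (-2.60 ± 0.40, adjusted p = 3.4e-05). Rps29 (-1.15 ± 0.33, adjusted p = 0.0193), Rpl29 (-1.07 ± 0.14, adjusted p = 1.01e-05) and Rps4x (-1.03 ± 0.12, adjusted p = 1.13e-06) were the next largest. Rpl18 was the 1 member that rose, with 18.8 and 18.1 CPM in the IPs against 8.72 to 13.6 CPM in the inputs (0.85 ± 0.20, adjusted p = 0.00193). Of the members called, 19 in WT and 17 in SOD1*G93A were called whichever library was left out, counted in each comparison on its own. These comparisons share no library with each other, but both share libraries with those of SOD1*G93A with WT that follow.

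The 14 calls in SOD1*G93A Gprin3 IP against WT were all increases, where 8.15% of all 13726 genes were called (2.92% rose and 5.22% fell). The members' median log2 fold change was 0.561, against 0.015 over all genes, and all 79 tested members were above 0. Small subunit genes supplied 10 of the 14 calls among 32 tested, and large subunit genes 4 among 47, with medians of 0.67 and 0.51. The median small member was also the more abundant (median large over median small member 0.670 in SOD1*G93A and 0.833 in WT). More counts make a call easier, and the difference between subunits was not tested. Per library, Rps26 had 48.3, 58.3 and 37.5 CPM in SOD1*G93A, against 29.3 and 19.7 CPM in WT (0.96 ± 0.26, adjusted p = 0.0497). Rpl29, a small basic protein of the large subunit, had 124, 99.6 and 109 CPM, against 56.7 and 60.4 CPM in WT (0.92 ± 0.17, adjusted p = 0.0108). Rps14 had 103, 165 and 90.8 CPM, against 66.0 and 60.0 CPM in WT (0.91 ± 0.23, adjusted p = 0.0353). No library of one genotype overlapped the other in these 3 genes.

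Beyond those 3, the called genes included the small subunit genes Rps3, Rps4x, Rps15, Rps24 and Rps25 and the large subunit genes Rpl15, Rpl32 and Rplp1. Rps3 forms part of the mRNA entry channel; it had 248, 357 and 238 CPM in SOD1*G93A, against 172 and 143 CPM in WT (0.82 ± 0.17, adjusted p = 0.0182). Rplp1 reached 202, 226 and 140 CPM, against 112 and 115 CPM in WT (0.73 ± 0.19, adjusted p = 0.0396). Of the other fixed members, Rpl4 (0.63 ± 0.18, adjusted p = 0.0647), Rps6 (0.65 ± 0.20, 0.079) and Rps2 (0.83 ± 0.24, 0.0597) did not pass, nor did Rpl3 (0.58 ± 0.25), Rplp0 (0.49 ± 0.23), Rplp2 (0.20 ± 0.20), Rpsa (0.33 ± 0.32) and Rps27a, a fusion of ubiquitin and a small subunit protein (0.39 ± 0.39). Rps6 had 73.9, 122 and 84.6 CPM, against 59.4 and 59.0 CPM in WT. All 44 members whose CPM did not overlap between the genotypes were higher in SOD1*G93A, where 21.1% of genes averaging at least 1 CPM were higher without overlap and 22.6% lower. The authors' deposited table gave 23 members higher and 0 lower, with a median of 0.597 and no share of all genes at hand. None of the 14 calls survived every left-out library: 0 were left without WT replicate 2, 1 without WT replicate 1 and 7 without SOD1*G93A replicate 2. None of the 14 was called with the trend of level on transcript length removed; the median was then 0.175 and the 1 call was another member, Rps15a. Oligodendrocyte markers summed to 107, 105 and 100 CPM in the SOD1*G93A IPs, against 316 and 460 CPM in WT, with 4 of 6 lower past the threshold. Astrocyte markers summed to 18.5, 15.3 and 27.6 CPM, against 77.1 and 143 CPM in WT, with 3 of 5 lower. Of the microglial markers tested 1 of 5 was lower, of the nuclear RNAs 1 of 3 (Meg3), and Gad2 was the 1 interneuron marker of 5 that was higher. The part of these markers in the members' increase was not tested.

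In Colgalt2 IP of the ALS set, the fitted SOD1*G93A difference was above 0 for all 80 tested members, but none passed the threshold. They include Rpl3l, whose few counts allow no statement on its change (0.41 ± 1.34). The members had a median log2 fold change of 0.495 against -0.004 over all 14785 genes, of which edgeR's quasi-likelihood test called 0.0%. At an unadjusted p under 0.05 there were 1073 genes (7.26%), 40 of them among the 80 members tested, and DESeq2 called 3 members after adjustment. The member with the smallest p was Rps14 (25.8, 32.4, 36.0 and 22.4 CPM, against 13.0, 12.7 and 9.19 CPM in WT; 1.32 ± 0.23, adjusted p = 0.234). All its SOD1*G93A libraries lay above all WT libraries. This held for 36 of the 81 members in all, where 4.79% of genes averaging at least 1 CPM did so, and for none in the opposite direction (2.75%). Rpl4 (416, 420, 415 and 458 CPM, against 340, 386 and 472 CPM in WT; 0.09 ± 0.16, adjusted p = 0.929) and Rps6 (0.17 ± 0.19, adjusted p = 0.871) had small differences. The authors' deposited table gave 5 members higher and 0 lower, with no share of all genes at hand for that table. Library names show which read of a pair was counted: 1 library of 3 in WT and 1 of 4 in SOD1*G93A carried the first read. With it as a term the count was still 0. Since no gene passed without the term, this cannot show whether the read plays a part. None of the markers of other cell types passed the threshold, but no gene did, so this says nothing about the mix of cells. Median log2 fold changes were -0.12 for interneuron, -0.25 for astrocyte, -0.27 for oligodendrocyte, -0.21 for microglial and -0.18 for vascular markers. For the nuclear RNAs the median was -1.19. Interneuron markers summed to 328, 303, 371 and 208 CPM in SOD1*G93A, against 627, 418 and 367 CPM in WT. The part of these markers in the members' values was not tested.

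In M1 input, the members were slightly lower in SOD1*G93A. The median log2 fold change was -0.175 over 79 members, against -0.010 over all genes, and 4 fell and none rose past the threshold, where 3.33% of all genes were called (1.2% fell and 2.13% rose). Rpl24, a large subunit protein whose mouse mutation gives the belly spot and tail phenotype, had 15.8, 12.4, 15.3, 14.6, 20.1 and 17.8 CPM in SOD1*G93A, against 23.8, 26.1, 27.5, 21.0 and 19.7 CPM in WT (-0.52 ± 0.12, adjusted p = 0.0171). Rpl10, which joins the large subunit late in its assembly, had 10.4 to 15.2 CPM with a median of 13.1, against 15.3 to 22.3 CPM in WT with a median of 17.4 (-0.45 ± 0.13, adjusted p = 0.0458). Rps18 (-0.42 ± 0.11, adjusted p = 0.0371) and Rps25 (-0.31 ± 0.09, adjusted p = 0.041) also fell. All 4 share more than 50% of their 50-base stretches with pseudogenes. CPM did not overlap between genotypes for 3 members, all lower in SOD1*G93A, where 2.48% of genes were lower and 1.38% higher without overlap. None of the 4 was called in every fit that left out a library, and the authors' deposited table gave 0. Rps14 was at 88.9 to 107 CPM in SOD1*G93A and 99.3 to 105 CPM in WT input (-0.02 ± 0.07, adjusted p = 0.896).

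**Figure D4:**
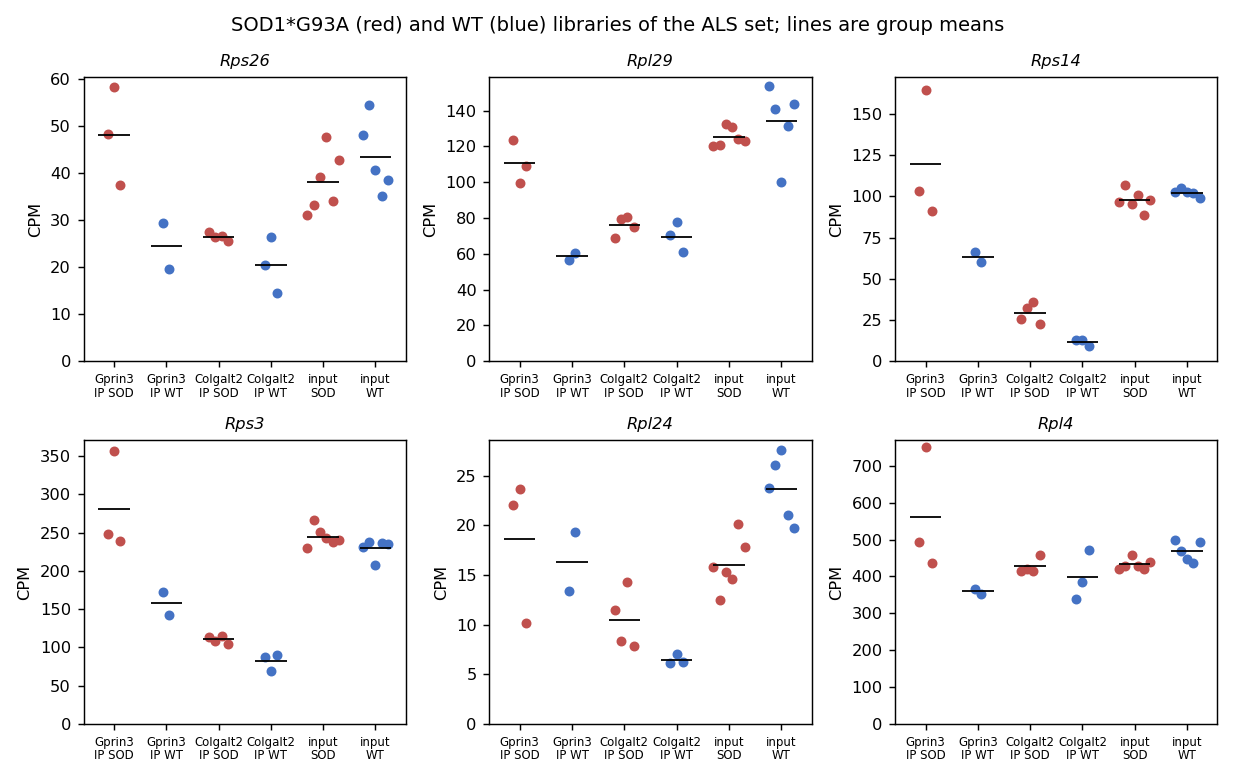
CPM of 6 genes in each library of the ALS set, SOD1*G93A in red and WT in blue, with group means as lines (Gprin3 IP, Colgalt2 IP and input, each with SOD1*G93A left of WT; y axes start at 0). Rps26, Rpl29, Rps14 and Rps3 show no overlap in Gprin3 IP (Rpl29: 124, 99.6 and 109 CPM in SOD1*G93A, against 56.7 and 60.4 CPM in WT), Rpl24 is lower in SOD1*G93A input, and the Rpl4 groups overlap in Colgalt2 IP (0.09 on the log2 scale).

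The SOD1*G93A difference itself was compared between sample types. Relative to input, the difference in Gprin3 IP was larger for 39 of 79 members and smaller for none past the threshold, where 18.2% of all genes were called (6.78% larger and 11.4% smaller); the median difference of log2 fold changes was 0.711 against -0.003 over all genes, and all 79 were above 0. Rps12 led (3.76 CPM on average in SOD1*G93A Gprin3 IP and 0.834 in WT, 4.66 and 5.62 CPM in input; 2.37 ± 0.48, adjusted p = 0.00122), followed by Rpl28 (1.43 ± 0.44, adjusted p = 0.0255). Of the fixed members, Rplp1, Rps6, Rpl3, Rpl4, Rps2, Rpl10, Rpl22, Rpl22l1, Rpl39, Rps27l and Rps4x passed, and Rplp0, Rplp2, Rpsa, Rps27a, Rpl7, Rpl7l1, Rps27 and Rps4l did not. Leaving out either WT Gprin3 IP replicate gave 23 and 24 calls, and 17 members were called whichever library was left out. With the length trend removed 12 members were called, 11 of them among the 39. Astrocyte, oligodendrocyte, microglial and vascular markers had median differences of the opposite sign (-1.94, -1.85, -2.29 and -0.57). Past the threshold, 5 of 5, 5 of 6, 5 of 6 and 2 of 6 of them were smaller. Interneuron markers had a median of 0.25, of the same sign as the members, and none of the 5 passed. The part of these markers in the members' values was not tested. Against Colgalt2 IP, the difference was larger or smaller for 0 of 79 members by edgeR's quasi-likelihood test (0.0775% of all genes were called, all smaller; 5 members, 6.33% of those tested, had an unadjusted p under 0.05, against 9.26% of all genes; DESeq2 called 0), with a median of 0.068. The 2 members with the smallest p were Rpl29 (0.82 ± 0.24, adjusted p = 0.227) and Rps4x (0.78 ± 0.25, adjusted p = 0.296). If the Colgalt2 libraries came from whole cortex, on which the labels are at odds, line and region cannot be told apart here.

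Across the 8 pairwise comparisons, Rps26 was called in 5 and Rps14 and Rps3 in 4 each. Rps26 was lower in Colgalt2 IP than input and in WT Gprin3 IP than input, and higher in Gprin3 than Colgalt2 IP, in SOD1*G93A Gprin3 IP than its input and in SOD1*G93A than WT Gprin3 IP. Several of these comparisons share libraries. Single comparisons called between 0.0% and 49.8% of all genes, and the share of all genes called in 4 or more was not counted. With the trend of level on transcript length removed, Rps26 and Rps14 were not called in any of the 8. Rps3 was then called only in WT Gprin3 IP against input, where it was lower (-0.34 ± 0.09, edgeR adjusted p = 0.00758).

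The paralog pairs differed in how alike their values were. Rpl22l1 and Rpl22, whose proteins replace each other in the large subunit, were, in SOD1*G93A over WT Gprin3 IP, at 0.60 ± 0.27 and 0.50 ± 0.19 on the log2 scale (adjusted p = 0.214 and 0.146). In input, Rpl22l1 was at -0.38 ± 0.12 (adjusted p = 0.0802) and Rpl22 at 0.00 ± 0.07 (adjusted p = 0.986). Rps4l, listed as a transcribed pseudogene by RefSeq, was at 0.70 ± 0.27 in SOD1*G93A Gprin3 IP over input (adjusted p = 0.0461), and Rps4x at -0.20 ± 0.10 (adjusted p = 0.112). Rps27l and Rps27 were at 0.65 ± 0.21 (adjusted p = 0.0194) and 0.48 ± 0.32 (adjusted p = 0.234) in the same comparison, and Rpl7l1 and Rpl7 at 0.51 ± 0.14 and 0.55 ± 0.13 (adjusted p = 0.00972 and 0.00254). Rpl3l passed the filter on low counts for SOD1*G93A against WT Colgalt2 IP alone, at 0.41 ± 1.34 (adjusted p = 0.965), beside 0.31 ± 0.18 for Rpl3 (adjusted p = 0.742). No difference within a pair was tested.

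Other genes of the ribosome were followed beside the members. Rpl10a, the bait, was higher in Gprin3 IP than input at baseline (30.4 and 23.5 CPM on average, 0.58 ± 0.21, adjusted p = 0.0486) and in SOD1*G93A (29.5 and 14.1 CPM, 1.13 ± 0.21, adjusted p = 0.000486), and at -0.31 ± 0.32 in Colgalt2 IP (adjusted p = 0.594). In WT Gprin3 IP of the ALS set it was not higher, at 16.1 CPM on average against 18.6 CPM in WT input (-0.07 ± 0.18, adjusted p = 0.774). Whether its reads come from the transgene or the native gene cannot be told apart in these counts. In SOD1*G93A against WT Gprin3 IP, where 2.92% of all genes rose and 5.22% fell, 1 of 5 other ribosomal protein genes tested rose and none fell. Of 19 elongation and other TOP mRNA genes, 1 rose (Hnrnpa1, 0.66 ± 0.17, adjusted p = 0.0366) and none fell, with a list median of 0.26. Of 43 ribosome biogenesis genes, 1 rose and 2 fell: Nop10, a component of the H/ACA pseudouridylation particle (0.68 ± 0.17, adjusted p = 0.0351), and Mdn1 and Utp20, long genes for large subunit and small subunit assembly factors (-1.91 ± 0.23 and -1.19 ± 0.24, adjusted p = 0.0011 and 0.0158). Of 22 control genes tested, Rheb, the activator of mTORC1, rose (0.89 ± 0.12, adjusted p = 0.00186), and Mtor, Tsc2 and Gcn1l1 fell (Mtor 89.4 and 186 CPM on average, -1.06 ± 0.13, adjusted p = 0.00132). In Colgalt2 IP against input at baseline, Mtor was higher (296 and 82.6 CPM on average, 2.07 ± 0.38, adjusted p = 0.0478) and Rptor, another mTORC1 subunit, as well (1.48 ± 0.24, adjusted p = 0.0389). All values of these list genes are as fitted, without removal of the trend on transcript length described next.

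Transcript length moved with these results. Across all genes tested, Spearman's rho between transcript length and log2 fold change was -0.40, -0.36 and 0.047 for SOD1*G93A against WT in Gprin3 IP, Colgalt2 IP and input. It was -0.38 between the IP lines at baseline and 0.30 between Colgalt2 IP and its input. These describe genes, which are not independent replicates. The mean log2 transcript length in kb, weighted by CPM, was 1.60, 1.62 and 1.64 in SOD1*G93A Gprin3 IP, against 1.81 and 1.83 in WT. Removing each library's smooth trend of level on length shrank the members' median to 0.175 for SOD1*G93A against WT Gprin3 IP (1 call), to 0.157 in Colgalt2 IP, to 0.117 for Gprin3 against Colgalt2 IP (0 calls) and to -0.328 for Colgalt2 IP against input (0 calls). The median of the SOD1*G93A effect in Gprin3 IP beyond that in input was then 0.347, with 12 calls. The directions of the Gprin3 IP and input calls also shifted: 2 higher and 6 lower at baseline, 16 higher and 4 lower in SOD1*G93A, and 7 higher and 19 lower in WT. For SOD1*G93A against WT input, 2 members were called, Rpl24 lower and Rpl15 higher (-0.45 ± 0.12 and 0.38 ± 0.10, adjusted p = 0.0281 and 0.0429). The correction uses the members' own shortness, so how much of the members' difference belongs to length and how much to the members cannot be told apart.

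**Figure D5:**
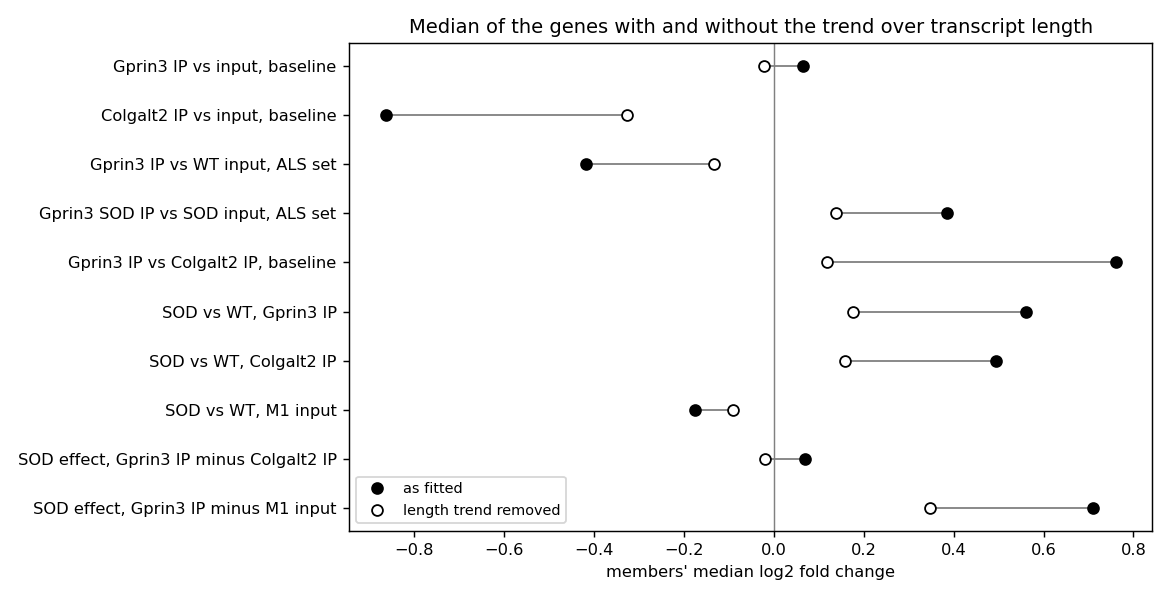
Median log2 fold change of the tested members in 10 comparisons as fitted (filled) and after removing each library's trend of level on transcript length (open), joined by a line. The medians lie closer to 0, at -0.328, against -0.864 as fitted, for Colgalt2 IP over input, and at 0.117, against 0.761, between the IP lines at baseline.

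Members that carry a TOP tract at the RefSeq start were set beside members without one by their median log2 fold changes. For SOD1*G93A against WT in Gprin3 IP these were 0.58 (29 members) and 0.51 (29), and in Colgalt2 IP 0.52 (29) and 0.46 (30). For Gprin3 against Colgalt2 IP they were 0.78 and 0.54, with 7 calls among 29 and 1 among 30, all higher, where 2.22% of all genes were higher. With the length trend removed, 0 members were called in that comparison. For SOD1*G93A against WT in Gprin3 IP, 3 members with a tract and 4 without were called, all higher, where 2.92% of all genes were higher. Members at or below the median transcript length and those above it had medians of 0.58 and 0.51 in SOD1*G93A against WT Gprin3 IP and of 0.59 and 0.41 in Colgalt2 IP. Members with at most 50% of their stretches in pseudogenes and the others had medians of 0.58 and 0.51 in Gprin3 IP, and of 0.50 and 0.47 in Colgalt2 IP. No difference between these classes was tested.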

How the data were processed

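RNA of 32 libraries was sequenced; per the labels' protocols, 15 ng of RNA a sample went through NuGEN Ovation V2 amplification before TruSeq v2 library preparation. The deposited files hold raw gene counts; per the submitters' processing notes the build was mm10, with Subread, featureCounts and DESeq2 1.26.0. The authors' deposited comparison tables hold log2 fold changes with standard errors and adjusted p-values, used beside the results; their 36 per-library columns were not used. Rows with no symbol held at most 0.0201% of a library's counts and were left out.

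Gene counts went into edgeR 4.0.16 under R 4.3.3 (filterByExpr, TMM factors, robust quasi-likelihood F test on the groups compared, Benjamini-Hochberg adjustment over all genes tested, threshold 0.05). DESeq2 1.42.0 was an alternative. CPM is scaled to the library total, without TMM factors. Lengths and 50-base stretches come from GENCODE vM21, starts from RefSeq. The fits were tested on simulated data. The closest pair of libraries within a group had a chi-square of 6.76 per degree of freedom, so none was counted as a repeat.

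Members, gene lists and comparisons were chosen with earlier results of these data known. Genes are named by rule: in each comparison up to 4 members a direction with the largest change among those called at 5 CPM or more (otherwise the 2 smallest p), a set of stalk and other members and paralog pairs, the 3 most and 3 least abundant per kb, members called in 4 or more comparisons, and the largest changes in the related lists. Genes listed as called, the most and least variable members, and those printed for their start were named after their values were seen. Some genes that these rules name are not reported here. Alternatives were DESeq2, size factors, no filter, a replicate term, 1 fit of all libraries, the length trend, the sequenced read and each library left out.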

Additional observations from a re-analysis of the deposited data

Results flagged for a closer look

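The SOD1*G93A effect differed between Gprin3 IP and M1 input for 39 members by the interaction test. Of all genes tested, 18.2% were called (6.78% larger and 11.4% smaller). Among the genes named, the difference of log2 fold changes was 2.37 for Rps12, 1.43 for Rpl28, 1.28 for Rpl10, 1.16 for Rpl39, 1.10 for Rps26 and 1.03 for Rps27l. It was 0.96 for Rpl22l1, 0.92 for Rps14, 0.83 for Rps4x, 0.79 for Rplp1, 0.78 for Rps2, 0.71 for Rps6, 0.69 for Rpl4, 0.68 for Rps3, 0.60 for Rpl3 and 0.49 for Rpl22. All were larger in Gprin3 IP as fitted. With the length trend removed, 12 members were called, 11 of them among the 39, and Rpl22 was at -0.07 ± 0.15.

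A single library lay far from the others of its group in 5 of 66 checks on groups of 4 or more, where chance gives about 5 in 100. Rpl4 was at 458 CPM in Colgalt2 SOD1*G93A IP replicate 4, against 415 to 420 CPM in the others, and Rpl10 at 13.7 CPM in the same library, against 18.4 to 19.3 CPM. Rps27 was at 13.9 CPM in Colgalt2 SOD1*G93A IP replicate 3, against 4.87 to 5.70 CPM. Rpsa was at 37.3 CPM in WT input replicate 4, against 41.8 to 43.5 CPM, and Rpl7l1 at 20.8 CPM in SOD1*G93A input replicate 2, against 24.5 to 26.3 CPM.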

How the results depend on the processing

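Medians of the members kept their sign under every alternative except for Gprin3 IP against input at baseline and the SOD1*G93A effect in Gprin3 IP beyond Colgalt2 IP, whose medians lay near 0. With other size factors every count stayed within a set fold range of the main count, and every median within the spread between libraries of a group. The counts need not be identical. Without the low-count filter Colgalt2 IP over input had 34 calls and the IP lines at baseline 24. DESeq2 called 33 and 22 in these; between SOD1*G93A and WT it called 24 in Gprin3 IP, 3 in Colgalt2 IP and 9 in input. One fit of all 32 libraries gave 50, 43, 30, 8 and 0 in the same order, and 2 for the effect beyond Colgalt2 IP. With the length trend removed, Gprin3 IP over input had 8 calls at baseline and 20 in SOD1*G93A (median 0.138), Colgalt2 IP over input 0 (-0.328), and the IP lines at baseline 0 (0.117). Between SOD1*G93A and WT there were 1 in Gprin3 IP (0.175) and 2 in input, 1 higher and 1 lower, and 12 for the effect beyond input (0.347). The median was then -0.134 for WT Gprin3 IP against input and 0.157 for SOD1*G93A against WT in Colgalt2 IP. Apart from what each alternative changes by construction, the cause was not tested. Shares of all genes called under each alternative are not given here. A moved count may therefore reflect all genes and not the members alone.

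Deviations of same-numbered libraries from their group means were weakly correlated (-0.09 to 0.086). In groups of 2 libraries the deviations mirror each other, so this check cannot tell whether the replicate numbers pair libraries. The main fits used no pairing. With the replicate number as a block Gprin3 and Colgalt2 IP over input had 7 and 26 calls at baseline, SOD1*G93A Gprin3 IP over input 18, the IP lines at baseline 19 and SOD1*G93A over WT Gprin3 IP 28, and the median for WT Gprin3 IP against input was -0.584.

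Leaving out 1 library gave these ranges of calls and of medians. At baseline, Gprin3 IP over input had 1 to 9 calls (-0.096 to 0.221), Colgalt2 IP over input 0 to 68 (-1.038 to -0.583) and the IP lines 0 to 26 (0.532 to 0.964). Gprin3 IP against input in the ALS set had 23 to 53 in SOD1*G93A (0.227 to 0.555) and 26 to 37 in WT (-0.517 to -0.371). SOD1*G93A against WT had 0 to 16 in Gprin3 IP (0.402 to 0.722), 0 in Colgalt2 IP (0.437 to 0.563) and 1 to 4 in input (-0.221 to -0.121). In input, 1 call was left without WT replicate 1 or 2 or SOD1*G93A replicate 1, 2 or 4, and 2 without WT replicate 5 or SOD1*G93A replicate 3. The effect beyond Colgalt2 IP had 0 (-0.09 to 0.209) and beyond input 23 to 52 (0.58 to 0.866). A group left with 1 library was assumed to vary like the others.

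The large over small ratio per kb, for the median member and without Rpl4 was 1.47, 0.722 and 1.21 in Gprin3 IP, 1.51, 0.834 and 1.20 in its input, 1.67, 0.89 and 1.33 in Colgalt2 IP, and 1.5, 0.878 and 1.19 in its input. In the ALS set it was 1.55, 0.67 and 1.21 in SOD1*G93A and 1.7, 0.833 and 1.3 in WT Gprin3 IP, 1.71, 1.09 and 1.3 in SOD1*G93A and 1.84, 1.29 and 1.32 in WT Colgalt2 IP, and 1.5, 0.782 and 1.12 in SOD1*G93A and 1.46, 0.783 and 1.12 in WT input. With the sequenced read as a term, SOD1*G93A against WT Colgalt2 IP again had no calls, which cannot show whether the read plays a part. Members at a few counts per library, such as Rpl26 and Rpl3l, allow no statement on change.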
